A study of Mus musculus with 6 samples.

Results

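The genes described here encode 8 proteins of the red cell membrane: the anion exchanger band 3 (Slc4a1), ankyrin (Ank1), the beta chain of erythroid spectrin (Sptb), protein 4.1 (Epb41), protein 4.2 (Epb42), the Rh-associated glycoprotein (Rhag), the mouse Rh protein (Rhd) and the Kell blood group endopeptidase (Kel). They were taken by symbol from the deposited table of 13007 genes, where all 8 were found, and all 8 passed the filter on low counts that left 12427 genes for testing. Poly-A RNA was sequenced from mouse bone marrow cells of strain C57BL/6, with equal numbers of cells sorted per sample, to see how acute erythroid leukemia cells differ in expression from normal erythroid precursors. The AEL group (3 libraries, genotype Trp53-/- with ERG expression) came from leukemic marrow cells into which ERG, an ETS transcription factor, had been introduced together with GFP, and GFP-positive cells were sorted. The NC group (3 libraries, genotype WT) came from normal marrow stained for CD71, the transferrin receptor, and for Ter119, an antigen of maturing red cells, before sorting; which fraction was collected is not stated. The source label of all 6 samples, NC included, names transformation by SETBP1 and ASXL1 mutations. For NC this contradicts the WT genotype label, and no other label resolves it. Neither the age of the mice, the promoter driving ERG, nor whether replicates came from separate animals is given, and p-values therefore reflect only how these 6 samples spread. AEL and NC are used below as the names the libraries carry in the labels.

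Red cells keep their shape through a mesh of spectrin under the plasma membrane. Ankyrin, helped by protein 4.2, ties spectrin to band 3, which exchanges chloride for bicarbonate. The Rh proteins and the Rh-associated glycoprotein belong to the same ankyrin-linked complex. Protein 4.1 fastens the spectrin ends to short actin filaments and to glycophorin C. The Kell protein is joined to the XK protein by a disulfide bond. Several of these genes are switched on late in erythroid maturation, and inherited loss of band 3, ankyrin, spectrin or protein 4.2 causes spherocytic anemia.

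Library totals lay between 8171676 and 9945330 counts. CPM below are counts scaled to the library total with TMM factors, on which 3 counts equal 0.274 to 0.387 CPM, and these floors cover counting error only. Trp53 stood at 975 to 1171 CPM in AEL and 162 to 177 CPM in NC, which goes against the Trp53-/- label on its face, but counts per gene do not tell reads of the deleted part from reads of the rest. Erg stood at 556 to 790 CPM in AEL and 4.38 to 8.52 CPM in NC. Biological variation between libraries (edgeR's common coefficient) was 44.3% within AEL and 9.02% within NC. Because each group was sorted on its own markers, effects of sorting and of leukemia cannot be told apart, and in bulk samples fewer cells of a type and less RNA per cell cannot be told apart either.

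Of the 8 membrane genes, 7 fell in AEL and 0 rose (edgeR quasi-likelihood test, adjusted p under 0.05 over all genes tested). Of all tested genes 52.8% were called, with 29% lower and 23.9% higher in AEL. The median log2 fold change of the 8 genes was -1.08, against -0.05 for all tested genes. At an unadjusted p under 0.05, 7 were lower and 0 higher by edgeR, and DESeq2 and limma also called 0 higher. The same 7 genes had all 3 AEL libraries below all 3 NC libraries, and 0 had the reverse, where 36.1% of all tested genes lay wholly lower and 29.9% wholly higher. The groups overlapped for Epb41, which encodes protein 4.1. The count of genes that fell was 4 without NC replicate 3, where Slc4a1, Ank1 and Sptb did not pass. Scaling to library totals alone moved the median of all genes to 0.14 and the share of higher genes among those called from 45.2% to 55.2%; quantile normalization moved them to 0.11 and 55.5%, and 6 of the 8 genes fell under either.

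**Figure D1:**
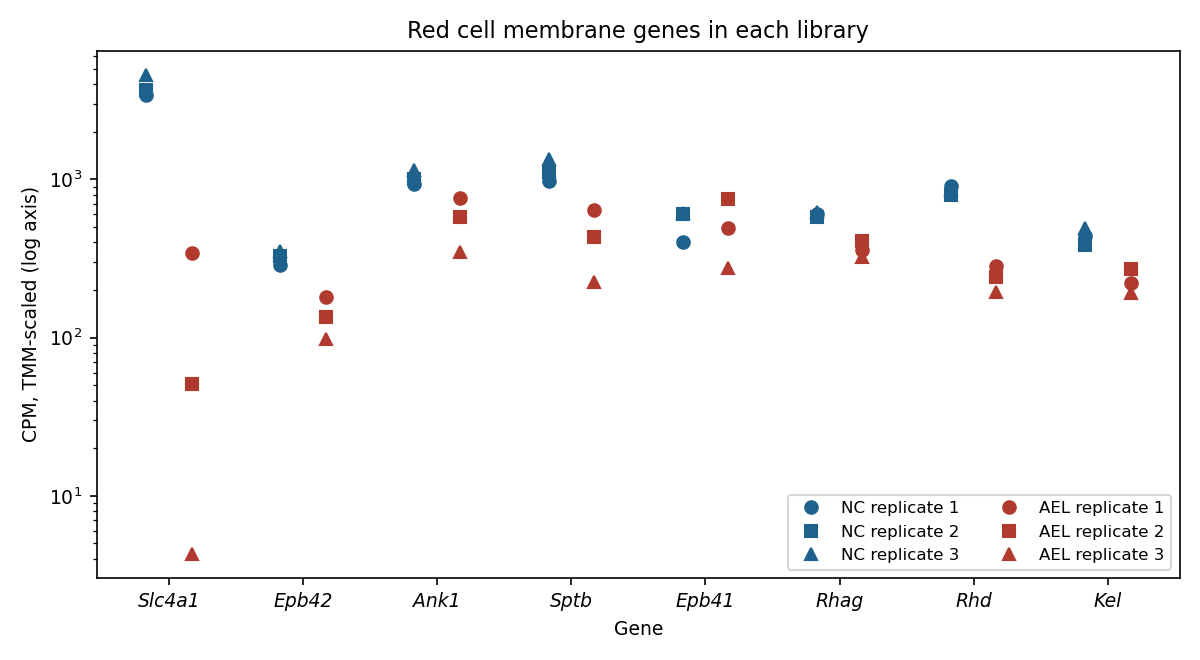
TMM-scaled CPM (log axis) of the 8 membrane genes in each library, NC in blue and AEL in red, with one symbol per replicate number. Slc4a1 spans 4.30 to 344 CPM in AEL against 3399 to 4579 CPM in NC, and Epb41 is the only gene of the 8 whose groups overlap.

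Band 3 had the largest log2 fold change of the 8 genes. Slc4a1 (chromosome 11, 102348824 to 102366203, minus strand, GRCm38) was at 3399, 3666 and 4579 CPM in NC replicates 1 to 3 and at 344, 51.2 and 4.30 CPM in AEL replicates 1 to 3. The AEL libraries thus held 8.87%, 1.32% and 0.111% of the NC mean, and the lowest of them rested on 47 counts. The next lowest value among the 8 genes was that of Sptb in AEL replicate 3, at 19.6% of its NC mean. The log2 fold change was -4.87 (SE 1.37, adjusted p = 0.0224), a 29.2-fold difference. This call ended when any 1 NC replicate was left out (adjusted p = 0.0532, 0.0534 and 0.0601), while the log2 fold change stayed between -7.07 and -4.29 with any library left out. Among 8816 genes with a mean of at least 10 CPM and counts in every AEL library, the 80.1-fold range of Slc4a1 over the AEL libraries was wider than that of 99.7% of genes, where the median gene had a 1.45-fold range. In NC the range was 1.35-fold. Slc4a1 took 42.8% to 45.7% of the summed CPM of the 8 genes in NC, and 10.5%, 1.79% and 0.260% in AEL replicates 1 to 3.

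The genes of the 2 proteins that link band 3 to the skeleton had smaller log2 fold changes. Epb42 (chromosome 2, 121017891 to 121037072), which encodes protein 4.2, was at 287, 328 and 352 CPM in NC and at 181, 135 and 97.6 CPM in AEL. The groups did not overlap, and its log2 fold change of -1.23 (SE 0.23, adjusted p = 0.00454) held its call under every alternative setting tried. Ank1 (chromosome 8, 22974844 to 23150497), which encodes ankyrin, was at 930, 1010 and 1152 CPM in NC and at 762, 578 and 346 CPM in AEL. AEL replicate 1 lay at 73.9% of the NC mean and AEL replicate 3 at 33.6%. The log2 fold change of -0.87 (SE 0.28, adjusted p = 0.0348) lost its call with library totals alone (adjusted p = 0.0555), with quantile normalization (adjusted p = 0.0646), with the replicate number as a block (adjusted p = 0.0564), and without any 1 NC replicate (adjusted p = 0.0711, 0.0861 and 0.11).

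In the spectrin skeleton, the beta chain fell and protein 4.1 did not pass. Sptb (chromosome 12, 76580488 to 76710547) was at 976, 1115 and 1337 CPM in NC and at 642, 430 and 223 CPM in AEL. Its log2 fold change was -1.40 (SE 0.36, adjusted p = 0.0168), a 2.64-fold difference, and adjusted p = 0.0615 without NC replicate 3. The gene span of Sptb overlaps Plekhg3 on the opposite strand, which averaged 16.8 CPM in NC and 0.841 CPM in AEL, so its reads are few beside those of Sptb. Epb41 (chromosome 4, 131923413 to 132075321) was at 400, 604 and 616 CPM in NC and at 491, 746 and 274 CPM in AEL. AEL replicate 2 lay above all NC libraries and AEL replicate 3 below all of them. The log2 fold change was -0.10 (SE 0.36, adjusted p = 0.833) and ran from -0.46 to 0.23 when 1 library was left out. Protein 4.1 is made in many cell types besides red cells, and its transcripts are spliced in several ways that gene-level counts do not separate.

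Both Rh genes and the Kell gene fell. Rhag (chromosome 17, 40811126 to 40840754), whose product carries the Rh proteins to the surface, was at 600, 581 and 625 CPM in NC and at 355, 406 and 321 CPM in AEL. The AEL values kept within a 1.26-fold range, and the log2 fold change was -0.74 (SE 0.12, adjusted p = 0.00296). Rhd (chromosome 4, 134864536 to 134896172), the Rh protein gene, was at 905, 799 and 858 CPM in NC and at 283, 242 and 193 CPM in AEL. With a log2 fold change of -1.83 (SE 0.16, adjusted p = 0.000383) it had the smallest adjusted p of the 8 genes. The Kell gene Kel (chromosome 6, 41686330 to 41704339) was at 436, 382 and 494 CPM in NC and at 220, 271 and 192 CPM in AEL, a log2 fold change of -0.94 (SE 0.17, adjusted p = 0.00379). The calls of Rhag, Rhd and Kel, like that of Epb42, held in all 18 alternative settings.

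The sequences before the transcription start were searched for motifs of erythroid factors. The motifs searched were GATAA, the core bound by GATA1, the central erythroid transcription factor, and CACCC, the core bound by KLF1, an activator of late erythroid genes, each on both strands over the 250 bases before each start in the RefSeq table (GRCm38.p6). The table matched 6 of the 8 genes, with 8 starts, 3 of them of Epb41; Slc4a1 and Ank1 had no entry. Of all 32851 windows in the table, 22.6% held GATAA, 52.0% held CACCC and 10.05% held both. Among the 8 windows, 4 held GATAA (Epb42, Rhag, Rhd, Kel), 4 held CACCC (Sptb, Rhag, Rhd, Kel) and 3 held both. Those 3 are printed here 5′ to 3′ on the gene's strand, ending at the base before the start, with the matches in capitals. In the Rhag and Rhd lines the CACCC match, read on the reverse strand, should appear as GGGTG. A number stands there in place of its GGG, so these lines are not the exact window.
Rhag (chr17:40810899-40811148, plus strand): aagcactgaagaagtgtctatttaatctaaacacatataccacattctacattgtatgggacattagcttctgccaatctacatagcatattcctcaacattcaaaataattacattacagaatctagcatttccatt0.0185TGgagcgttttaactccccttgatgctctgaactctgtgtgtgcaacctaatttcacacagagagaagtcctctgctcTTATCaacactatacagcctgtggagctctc
Rhd (chr4:134864286-134864535, plus strand): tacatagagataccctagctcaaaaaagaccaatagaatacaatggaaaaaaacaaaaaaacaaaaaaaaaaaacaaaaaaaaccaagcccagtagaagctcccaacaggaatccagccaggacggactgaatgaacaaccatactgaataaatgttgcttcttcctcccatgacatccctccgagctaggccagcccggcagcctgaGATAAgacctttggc0.0185TGtctctccctatcgctccttcaa
Kel (chr6:41704326-41704575, minus strand): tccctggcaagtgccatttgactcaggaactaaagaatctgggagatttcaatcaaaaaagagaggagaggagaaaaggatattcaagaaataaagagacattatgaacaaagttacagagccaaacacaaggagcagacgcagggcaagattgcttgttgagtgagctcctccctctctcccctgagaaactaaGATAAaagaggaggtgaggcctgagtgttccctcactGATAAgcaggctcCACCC
The GATAA match nearest the start began 31 bases before it in Rhag, read on the reverse strand, 42 bases before it in Rhd and 18 bases before it in Kel, with another 55 bases before it in Kel. CACCC matches began 112, 27 and 5 bases before the start in Rhag, Rhd and Kel, the first 2 on the reverse strand, and no match overlapped another. Also shown is 1 of the 3 windows of Epb41, the gene that did not pass, and like the other 2 it held neither motif. Among the genes that fell, the Sptb window held no GATAA, the Epb42 window no CACCC, and Slc4a1 and Ank1 had no window to search. Whether the motifs bear on the differences between AEL and NC was not tested.
Epb41 (chr4:132075314-132075563, minus strand): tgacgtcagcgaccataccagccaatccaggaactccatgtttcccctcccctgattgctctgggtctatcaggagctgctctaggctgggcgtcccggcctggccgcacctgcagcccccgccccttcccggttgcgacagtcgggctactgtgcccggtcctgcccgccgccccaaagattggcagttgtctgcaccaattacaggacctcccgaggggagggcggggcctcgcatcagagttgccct
A match describes letters in the window and does not show binding, and which start was used in these cells is not known from gene-level counts.

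The 3 AEL libraries differed in their levels of the 8 genes. All 8 genes were lowest in AEL replicate 3 in scaled CPM, but the share of all genes lowest in that library was not counted. Of the 8, 5 were highest in AEL replicate 1 (Slc4a1, Ank1, Sptb, Epb42, Rhd) and 3 in AEL replicate 2 (Epb41, Rhag, Kel). Against the NC mean, AEL replicate 3 stood at 19.6% for Sptb, 22.6% for Rhd, 30.3% for Epb42, 43.9% for Kel and 53.4% for Rhag. Without Slc4a1 the other 7 genes summed to 2933, 2808 and 1648 CPM in AEL replicates 1 to 3 and to 4534, 4818 and 5433 CPM in NC replicates 1 to 3. The range over the AEL libraries was widest, after Slc4a1, for Sptb (2.88-fold), Epb41 (2.72-fold) and Ank1 (2.20-fold). It was narrowest for Rhag (1.26-fold), Kel (1.41-fold) and Rhd (1.47-fold).

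**Figure D2:**
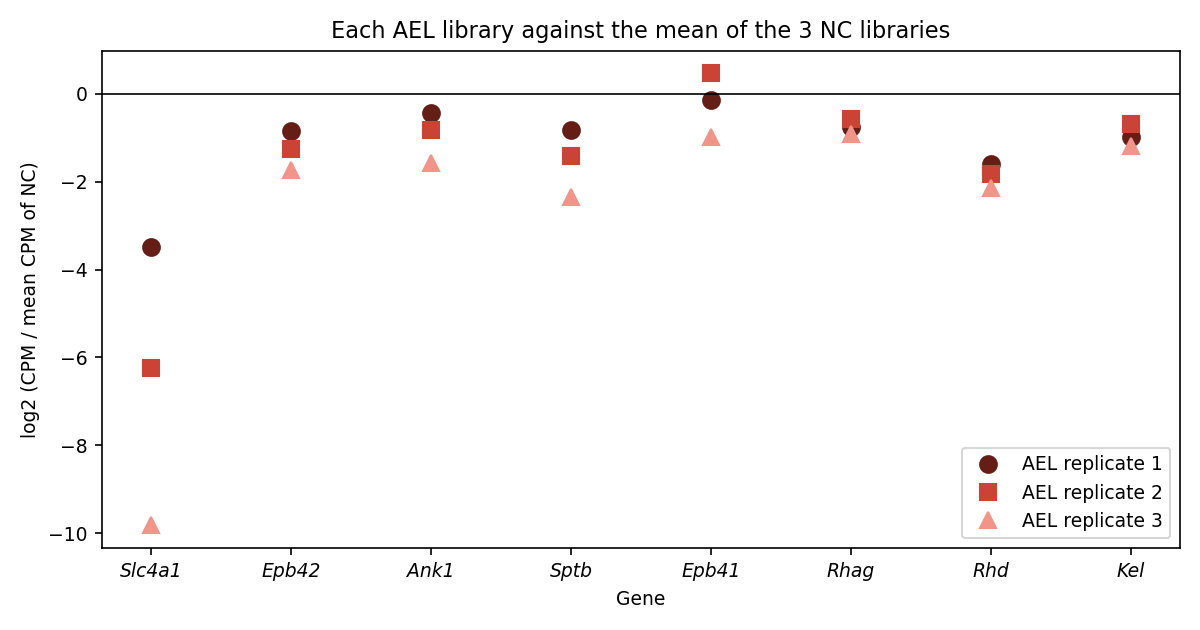
log2 ratio of each AEL library's CPM to the mean CPM of the 3 NC libraries, for each of the 8 genes, with the line at 0 marking the NC mean. AEL replicate 3 is the lowest point for all 8 genes, and Slc4a1 runs from -3.50 to -9.82.

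Levels of different genes were compared per length, as CPM per kilobase of all annotated exons (GENCODE M21). In NC, Slc4a1 stood highest at 794 ± 127 CPM per kilobase (SD, n = 3), followed by Rhd at 536 ± 33.4, Rhag at 257 ± 9.55 and Kel at 158 ± 20.2. Below them came Sptb at 94.1 ± 15.0, Ank1 at 76.2 ± 8.30, Epb42 at 59.5 ± 6.04 and Epb41 at 33.9 ± 7.60 CPM per kilobase (SD, n = 3 each). Neighbours in this order did not overlap between libraries, other than Sptb and Ank1. In AEL the order was led by Rhag at 154 ± 18.1 and Rhd at 150 ± 28.3 CPM per kilobase, which overlapped, and then Kel at 82.1 ± 14.4. The remaining 5 genes lay between 25.4 and 41.6 CPM per kilobase, and each overlapped its neighbour. Slc4a1, first in NC, came seventh in AEL at 27.2 ± 37.7 CPM per kilobase. Ank1 and Epb41 have many alternative exons: over the longest transcript alone, Ank1 stood above Sptb in NC (123 against 110 CPM per kilobase, overlapping), Rhd above Rhag in AEL, and Slc4a1 last in AEL at 29.3 CPM per kilobase.

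Ratios of counts within a library do not depend on the scaling. In each of the 7 ratios computed the 3 AEL libraries lay below the 3 NC libraries, which gave p = 0.1 in a two-sided exact permutation test, the smallest that 3 against 3 libraries allow, and 0.1 after adjustment. Band 3 reads per ankyrin read averaged 3.75 ± 0.193 in NC (SD, n = 3) and were 0.452, 0.0886 and 0.0124 in AEL replicates 1 to 3. Band 3 reads per protein 4.2 read fell in the range 11.2 to 13.01 for NC and 0.0440 to 1.90 for AEL. Beta spectrin per ankyrin moved less, from 1.10 ± 0.0555 to 0.744 ± 0.0992. Rhd reads per Rhag read went from 1.42 ± 0.0781 to 0.665 ± 0.114, and Kel reads per Xk read from 2.91 ± 0.173 to 1.56 ± 0.340 (SD, n = 3 each).

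**Figure D3:**
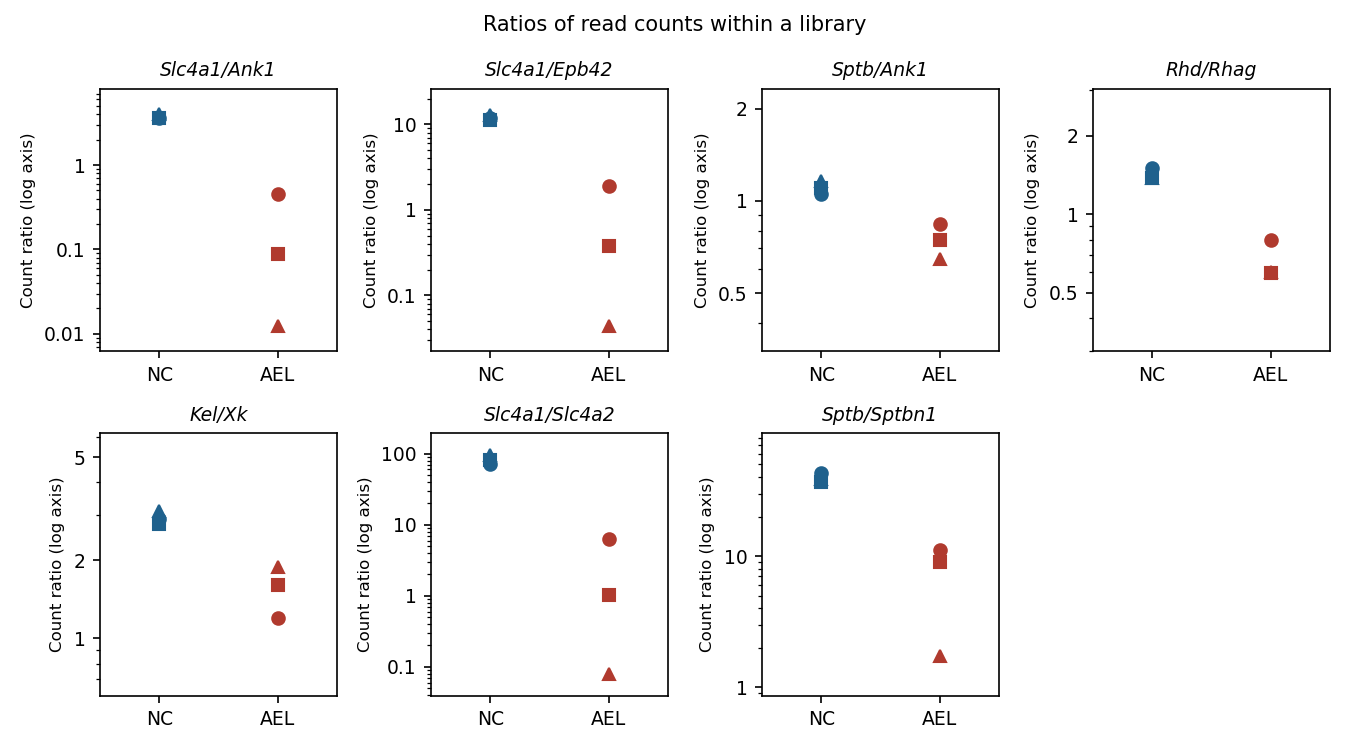
Ratio of read counts of paired genes within each library (log axes of differing range), NC in blue and AEL in red, with circles, squares and triangles for replicates 1, 2 and 3. In all 7 panels the AEL points lie below the NC points, and the 3 panels with Slc4a1 show the widest gaps.

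Other genes of the red cell membrane were read from a list of 49 genes, of which 46 were in the table and tested. Of these, 22 fell, 6 rose and 18 did not pass, with a median log2 fold change of -0.55. The share that fell was 47.8%, against 29% of all genes. Among skeleton genes, Tmod1, which caps the short actin filaments, fell by 2.32 on the log2 scale (SE 0.44), and Dmtn, the actin-bundling protein dematin, fell by 2.22 (SE 0.46). Add2, the erythroid-enriched beta adducin, fell by 1.31 (SE 0.13), while gamma adducin Add3 rose by 0.84 (SE 0.13) and alpha adducin Add1 did not pass (-0.31, adjusted p = 0.336). Tpm3, a tropomyosin, rose by 0.42 (SE 0.13), a call lost with the replicate block (adjusted p = 0.0698), without AEL replicate 2 or 3, and without any 1 NC replicate.

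Glycophorin C fell, while the Kell partner XK did not pass. Gypc, the membrane anchor of protein 4.1, fell by 1.45 (SE 0.41, adjusted p = 0.022), a call that ended without any 1 NC replicate. Xk was at 183, 169 and 102 CPM in AEL and 151, 139 and 160 CPM in NC, so its groups overlapped and its log2 fold change of 0.01 (SE 0.22, adjusted p = 0.967) changed sign among settings. Ache, acetylcholinesterase and carrier of the Yt blood group, fell by 2.99 (SE 0.36). Sema7a, carrier of the John Milton Hagen blood group, was at 2.19 to 3.66 CPM in NC and at 0, 0.542 and 0 CPM in AEL, and its call (adjusted p = 0.0139) ended without NC replicate 2. Art4, carrier of the Dombrock blood group, fell by 1.66 (SE 0.34).

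Transporters and regulators of the membrane went both ways. Slc2a4, the insulin-responsive glucose transporter, fell to 0.0914 to 0.450 CPM in AEL, against 35.4 to 45.4 CPM in NC, the largest fall of the list. Slc2a1, the main glucose transporter of human red cells, was at 0.225, 5.64 and 0.366 CPM in AEL and 5.67 to 6.79 CPM in NC and did not pass (adjusted p = 0.227). Piezo1, the mechanically gated cation channel, rose from 138, 166 and 174 CPM in NC to 418, 403 and 360 CPM in AEL, a log2 fold change of 1.30 (SE 0.13, adjusted p = 0.000544). Atp1b2, a beta subunit of the sodium pump, rose by 1.44 (SE 0.26), Aqp9, a water and glycerol channel, by 1.37 (SE 0.31), and Cd59a, an inhibitor of complement, by 0.59 (SE 0.20). The call of Cd59a ended with the replicate block, with the stricter filter, without AEL replicate 1 or 2, and without any 1 NC replicate.

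**Figure D4:**
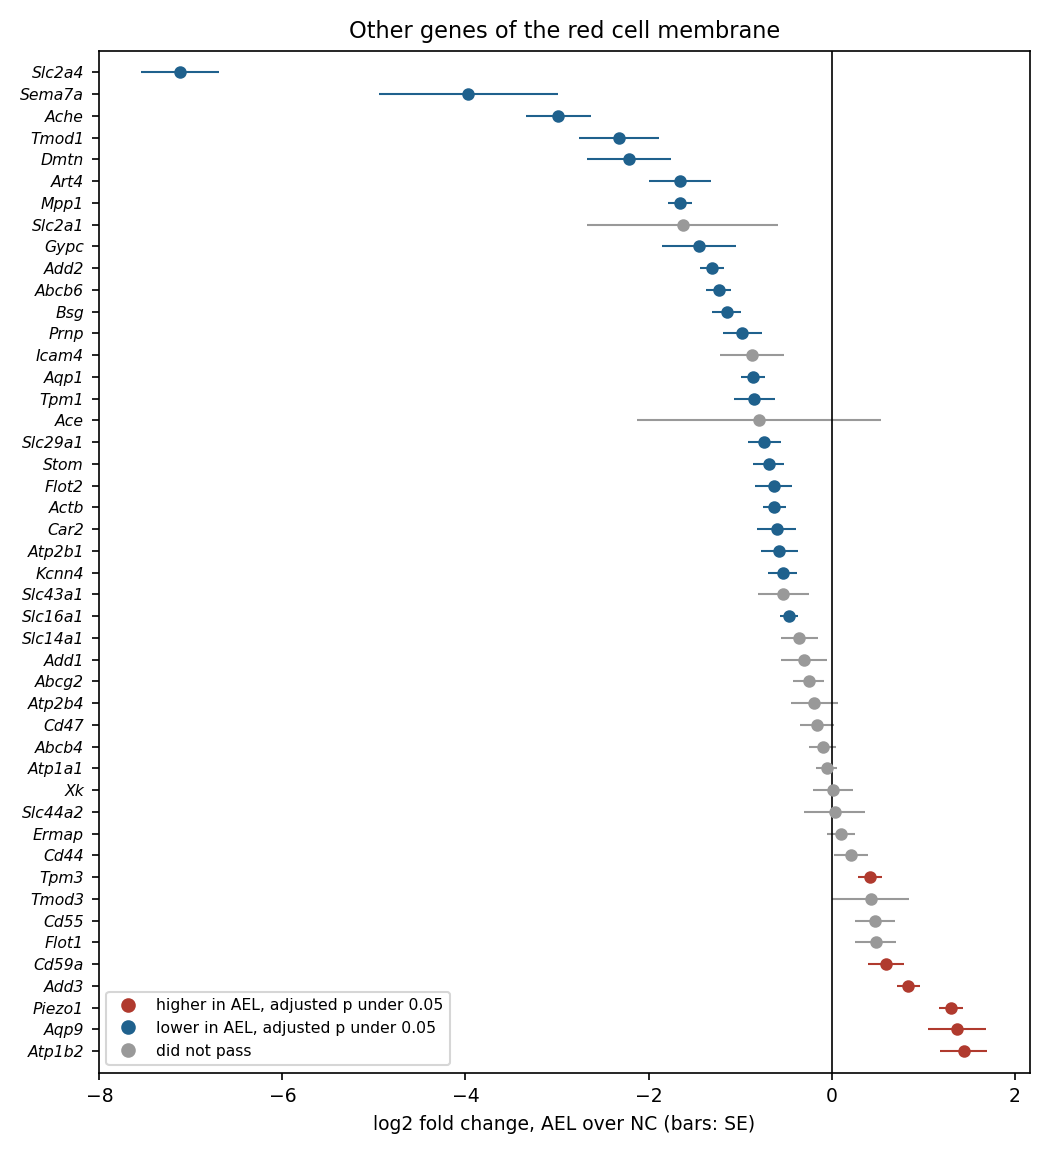
log2 fold change of AEL over NC for the 46 tested red cell membrane genes of the list, with SE bars, colored by whether edgeR called them lower (22), higher (6) or not (18). Slc2a4 lies farthest to the left and Atp1b2 farthest to the right.

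The paralogs of the 8 genes, most of them used outside red cells, went in both directions. Of 26 listed, 16 were in the table and 15 were tested: 7 fell, 5 rose and 3 did not pass, shares of 46.7% lower and 33.3% higher beside 29% and 23.9% of all genes. The numbers that rose varied from 1 to 6 among settings. The spectrin paralog Sptbn1, beta spectrin of other tissues, rose from 22.6, 30.5 and 34.3 CPM in NC to 57.4, 47.5 and 130 CPM in AEL (log2 fold change 1.42, SE 0.40, adjusted p = 0.0226), a call lost without any 1 NC replicate. Without AEL replicate 3 the log2 fold change of Sptbn1 was 0.88. Reads of Sptb per read of Sptbn1 went from 39.6 ± 3.39 in NC to 11.2, 9.06 and 1.72 in AEL replicates 1 to 3. Sptan1, its alpha partner, fell by 3.37 (SE 0.55).

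Ank2, ankyrin of heart and brain, was at 1.29, 2.60 and 3.92 CPM in NC against 5.18, 31.6 and 77.1 CPM in AEL, and rose by 3.85 (SE 0.97, adjusted p = 0.0148), a call lost without NC replicate 1 or 2. In AEL replicate 3, where Ank1 was lowest, Ank2 was highest. Without that replicate the log2 fold change of Ank2 was 2.86. Of the protein 4.1 family, Epb41l3, Epb41l1 and Epb41l2 fell. Epb41l3 was at 31.1 to 32.7 CPM in NC and 0.112 to 0.326 CPM in AEL, Epb41l1 at 10.6 to 13.1 CPM in NC and 0 to 0.434 CPM in AEL, both near or under the floor of 3 counts in AEL, and Epb41l2 fell by 2.29 (SE 0.32). Epb41l5 rose by 1.71 (SE 0.54), though not with the replicate block, in limma at a pseudocount of 5 CPM or with any 1 NC replicate left out. Slc4a2, an anion exchanger of many tissues, had 48.2, 45.1 and 47.2 CPM in NC against 54.9, 50.1 and 54.7 CPM in AEL and did not pass (adjusted p = 0.233). Reads of Slc4a1 per read of Slc4a2 were 70.5 to 97.0 in NC and 6.27, 1.02 and 0.0786 in AEL, so in AEL replicate 3 Slc4a2 had more reads than band 3. Slc4a7, a bicarbonate cotransporter, did not pass (0.23, adjusted p = 0.585).

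The transglutaminase relatives of protein 4.2 were lower or did not pass. Tgm2 fell to 1.74 to 6.30 CPM in AEL, against 161 to 183 CPM in NC, Tgm1 fell from 12.1 to 16.3 CPM in NC to at most 0.108 CPM in AEL, below the floor of 3 counts, and F13a1 ranged from 0.338 to 46.3 CPM in AEL and did not pass (adjusted p = 0.429). Of the Kell relatives, Ece1 fell by 4.05 (SE 0.69) and Ece2 rose by 1.60 (SE 0.40), a call that ended with the replicate block and without NC replicate 3. Mme, the neutral endopeptidase CD10, was at 4.05, 2.28 and 84.7 CPM in AEL and 0.230 to 1.30 CPM in NC, and its call (log2 fold change 5.21, SE 1.60, adjusted p = 0.0311) ended with the replicate block, in limma on log2(CPM + pseudocount) at all 3 pseudocounts, and without any 1 NC replicate. Without AEL replicate 3 the log2 fold change of Mme was 1.97.

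**Figure D5:**
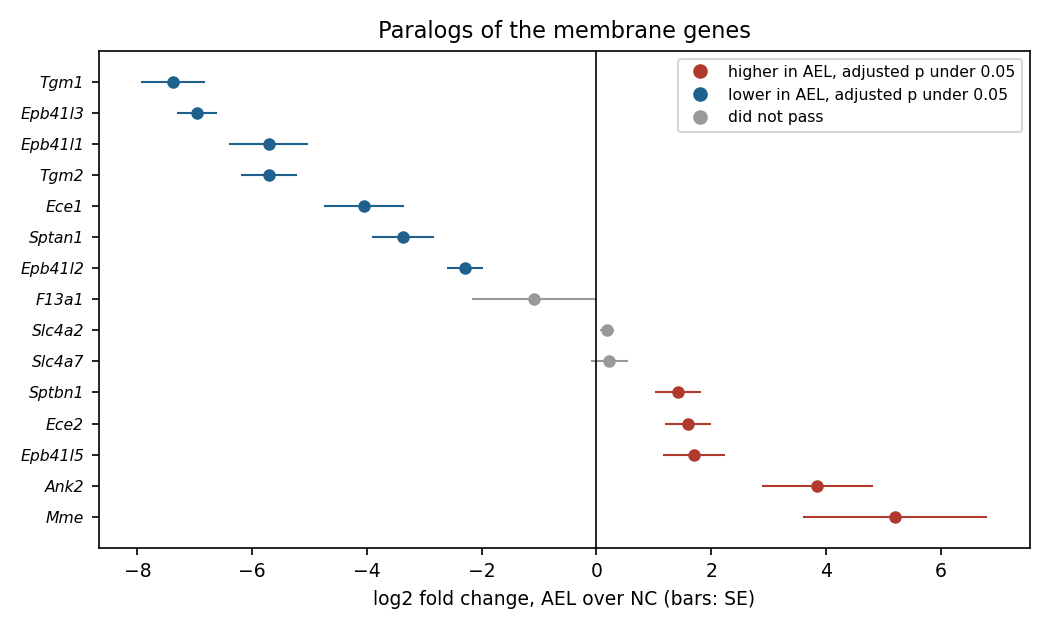
log2 fold change of AEL over NC for the 15 tested paralogs of the membrane genes, with SE bars, colored as lower (7), higher (5) or not passing (3) in edgeR's test. The paralogs Sptbn1 and Ank2 lie to the right of 0, while Sptan1, Tgm1, Tgm2 and 3 of the 4 protein 4.1 paralogs lie to the left.

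Erythroid markers and markers of other marrow cells moved beside these genes. The 9 measured erythroid markers, globins included, summed to 10310, 4863 and 3526 CPM in AEL replicates 1 to 3 and to 40530 to 54330 CPM in NC. This is the order of the AEL libraries for Slc4a1, but Epb41, Rhag and Kel were highest in AEL replicate 2. Hba-a1 alone gave 4037, 1864 and 1166 CPM of these AEL sums. Tfrc, also among the 9, had another order (970, 574 and 763 CPM in AEL replicates 1 to 3). Of those 9, 6 fell and 3 (Gata1, Tal1, Epor) did not pass. Beside this count and those that follow, 29% of all tested genes were lower and 23.9% higher in AEL. Neutrophil markers (10 of 10 fell) summed to 17.3 to 1030 CPM in AEL and 7456 to 8683 CPM in NC. Macrophage and monocyte markers (10 of 10 fell, with Spic at 0 in AEL) summed to 7.54 to 231 CPM and 3820 to 4549 CPM. B cell markers (8 of 8 fell) summed to 1.63 to 2.38 CPM in AEL and 197 to 239 CPM in NC. T and NK cell markers (4 of 4 fell) summed to 0.225 to 0.823 CPM in AEL and 46.8 to 53.1 CPM in NC. Megakaryocyte markers (3 fell and 3 rose of 7 tested, with Gp1bb and Ppbp at 0 in AEL) summed to 173 to 445 CPM and 126 to 150.5 CPM. Mast cell and basophil markers (2 of 5 fell) summed to 1.12 to 19.1 CPM in AEL and 60.6 to 70.6 CPM in NC. The part of any of these cells in the differences of the 8 membrane genes was not tested.

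In a list of 26 genes, erythroid and progenitor regulators together with Tfrc, 8 fell, 8 rose and 10 did not pass. These shares, 30.8% lower and 30.8% higher, lie near the 29% and 23.9% of all genes. The 8 that rose include Erg (log2 fold change 6.62, SE 0.30), which had been introduced into the AEL cells. Klf1 fell by 0.91 (SE 0.17, adjusted p = 0.00453), with 404, 303 and 268 CPM in AEL and 588, 598 and 646 CPM in NC. Gata1 was at 376, 276 and 276 CPM in AEL and 443, 388 and 389 CPM in NC without overlap, and did not pass (adjusted p = 0.0702), although it was called lower by DESeq2 (adjusted p = 0.0472) and without AEL replicate 1 (adjusted p = 0.0185). Tal1, an erythroid partner of GATA1, did not pass (adjusted p = 0.19). Tfrc, which encodes the CD71 antigen used to stain NC, fell by 1.21 (SE 0.20). Gata2, the GATA factor of early progenitors, rose by 5.43 (SE 0.20) and Myb, a progenitor factor, by 2.11 (SE 0.17). Cbfa2t3 rose by 2.37 (SE 0.25), Runx1 by 1.37 (SE 0.20), Bcl11a by 1.31 (SE 0.16) and Ikzf1 by 0.54 (SE 0.10). Tcf3 rose by 0.33 (SE 0.10), a call lost with the replicate block and without any 1 NC replicate. The remaining genes of this list fell or did not pass. Spi1 and Fli1 fell, with log2 fold changes of -3.79 (SE 0.88) and -3.68 (SE 0.71), and Lmo2 did not pass (adjusted p = 0.692).

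The genes nearest to Slc4a1 in their pattern over the 6 libraries were Hspa1a, Hspa1b, Cd81, Stard10 and Ypel4. Likeness was the Euclidean distance between log2(CPM + 1) profiles, each centred on its own mean, among 8925 other genes at a mean of at least 10 CPM, and the 5 distances ran from 2.39 to 3.10. Hspa1a, an inducible heat shock protein, was at 45.0, 1.84 and 0.366 CPM in AEL and 135 to 228 CPM in NC; Hspa1b is a near-identical copy, so counts between them are uncertain. Stard10, a lipid transfer protein, was at 7.32, 7.81 and 1.19 CPM in AEL and 593 to 692 CPM in NC. The genes nearest to the mean profile of the 8 were Hist2h2be, Tyms, Ptpn18, Fam210b and Art4, with distances of 0.200 to 0.319. Art4 was also on the list of membrane genes.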

How the data were processed

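The authors deposited 1 table, named CPM, whose values are unscaled whole counts with totals that differ by library; every row exceeds 1 CPM in at least 2 libraries. Per the submitters' processing notes, mm10 and edgeR 3.32.1 were involved, without a stated role; the aligner, counter and strand setting were not given in the sources used here. Groups and replicate numbers came from the sample titles.

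Counts were tested with edgeR 4.0.16 (R 4.3.3; quasi-likelihood, TMM, group as the only term) on genes with at least 1 CPM in 3 or more libraries, with Benjamini-Hochberg adjustment at 0.05 over all genes tested. SE was taken as the size of the log2 fold change over the root of the F statistic. The test was also run on simulated data with the same dispersion for all genes and both groups, so that check does not cover the unequal spread of AEL and NC. Alternatives were DESeq2 1.42.0, limma 3.58.1 (pseudocounts 0.5, 1 and 5, and group weights), other scalings and filters, a replicate block, and each replicate left out. No library repeated another (chi-square per degree of freedom 4.82 to 59.0 within groups).

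Members and lists were chosen with earlier results of these data known. The text names the 8 genes, up to 6 passing genes per direction of the membrane list, a fixed set of partners and regulators, the tested paralogs and the nearest profiles. Further genes were named for an exception or a contrast after their values were seen (Add1, Gata2, Myb, Erg, Cbfa2t3, Runx1, Bcl11a, Ikzf1, Tcf3, Spi1, Fli1, Lmo2). A few genes of the lists are not reported here and were left out of the list counts.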

Additional observations from a re-analysis of the deposited data

How the results depend on the processing

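Among the 8 membrane genes, Epb42, Rhag, Rhd and Kel kept direction and call in all 18 alternatives, Sptb in 17, Slc4a1 in 15 and Ank1 in 12. Epb41, which did not pass, changed sign in 3: its log2 fold change was 0.083 with library totals alone and ran from -0.46 to 0.23 with 1 library left out (0.23 without AEL replicate 3, 0.01 without NC replicate 3). Without an AEL library 7 of the 8 fell each time, 5 paralogs rose, and 3021 to 3375 of all genes were called higher. Without an NC library 4 or 5 of the 8 fell, 1 paralog rose, and 1915 to 2062 of all genes were called higher. Either omission lowers the number of samples by 1, and the cause of this difference was not tested. Of the 46 other membrane genes 15 to 26 fell and 4 to 8 rose over all settings. Of paralogs, 3 rose in limma with a pseudocount of 5 CPM, 2 with the filter at 10 CPM, which removes genes, and 2 with the replicate block. Same-numbered AEL and NC libraries did not deviate together (r = 0.0624, -0.0334 and -0.0559 over genes). Not every library correlated best with its own number. With 3 libraries per group, each centred on its own group mean, this check cannot decide whether the numbers pair the samples. With the replicate block 6 of the 8 genes fell, and 3238 genes were called lower and 2241 higher in all, against 3599 and 2965. Depth limits Slc4a1 in AEL replicate 3 (47 counts) and the paralogs under 1 CPM.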
